A study of Homo sapiens with 8 samples.

Results

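The KLF genes encode Krüppel-like factors, transcription factors of the zinc finger class, and 10 of them were examined here: KLF3, KLF4, KLF5, KLF6, KLF7, KLF9, KLF10, KLF11, KLF12 and KLF13. A region of DNA counted for a gene where the authors' gene names for that region included it, unmarked where the region overlapped the gene and marked where the gene flanked the region. In all, 153 of the 327994 listed regions named a KLF gene of this set. They comprised 115 of 268071 captured regions, 47 of them overlapped and 68 flanking, and 38 of 59923 control regions, 23 of them overlapped and 15 flanking. The genes were chosen by name, and the set was selected on a measured value in so far as KLF6 was known to have one of the highest MEG3 TFR1 ratios at a gene edge. That value and its rank are therefore given as a description.

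The DNA came from H1 cells, an established human embryonic stem cell line, freed of RNA and sonicated to fragments of 200 to 300 bp. In each capture, 6 to 7 µg of this DNA was mixed with 20 pmol of a biotinylated RNA oligo in a buffer of 5 mM MgCl2 and 50 mM KCl and kept at 37 °C for 1 h, and DNA held by the RNA was taken up on streptavidin beads and released with RNases. The 3 oligos were MEG3 TFR1 and MEG3 TFR2, from the imprinted long noncoding RNA MEG3, and GATA6-AS TFR1, from the RNA antisense to the endoderm factor gene GATA6. The control group, no oligo, went through the same steps without an oligo. Each of the 4 groups had 2 libraries from independent experiments, 8 in all. All groups shared one cell line and purified genomic DNA in place of chromatin, and no gene expression was measured. The input libraries named in the design were not analysed here.

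For each oligo the authors deposited a captured list, with more signal with the oligo, and a control list, with more signal without it. The captured lists held 89739 regions under MEG3 TFR1, 73546 under MEG3 TFR2 and 104786 under GATA6-AS TFR1, and the control lists 12649, 10944 and 36330. Every region carried a single value, the authors' log2 ratio of oligo over no oligo. A fold value below is the same ratio on the linear scale, oligo over no oligo in the captured lists and no oligo over oligo in the control lists. Because the lists held no value for single libraries and no read totals, how deep the libraries were, and how far the 2 of a group differed, is unknown. No ratio below has an error, and no test was made. The 3 comparisons also share the no-oligo libraries, so values of different oligos at the same place stand side by side without being independent.

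Krüppel-like factors bind GC-rich and CACCC sequences through zinc fingers at the end of the protein, as the related SP factors do, and differ in the parts that activate or repress transcription. KLF3 and KLF12 belong to a branch that recruits the corepressor CtBP, KLF9, KLF10, KLF11 and KLF13 to a branch that recruits SIN3A, and KLF4, KLF5, KLF6 and KLF7 to a branch known mainly for activation. In embryonic stem cells, KLF4 and KLF5 are known for their part in self-renewal. In an RNA-DNA triplex the RNA pairs along a run of purines in the major groove of the duplex, so the purine runs of KLF promoters are shown first.

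Promoter windows of 250 bases before an annotated start, with 50 bases after it, were taken from RefSeq on GRCh38.p14 and matched by symbol. They covered 8 of the 10 genes with 16 windows, since some genes have several starts, and KLF3 and KLF10 were not matched. The sequences of 4 windows are printed below without the bases after the start, 3 because a captured region lay near them and that of KLF4 because it had a long run with no captured region near. Each reads 5′ to 3′ on the strand of the gene, with the longest run of only A and G, or of only C and T where the run lies on the opposite strand, in capitals.
KLF6, chr10:3785210-3785459, minus strand: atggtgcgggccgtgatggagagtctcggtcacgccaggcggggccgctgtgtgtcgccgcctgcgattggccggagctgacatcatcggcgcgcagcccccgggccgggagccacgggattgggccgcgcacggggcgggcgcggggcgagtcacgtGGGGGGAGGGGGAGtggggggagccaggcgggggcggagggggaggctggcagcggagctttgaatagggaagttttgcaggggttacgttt
KLF7, chr2:207165949-207166198, minus strand: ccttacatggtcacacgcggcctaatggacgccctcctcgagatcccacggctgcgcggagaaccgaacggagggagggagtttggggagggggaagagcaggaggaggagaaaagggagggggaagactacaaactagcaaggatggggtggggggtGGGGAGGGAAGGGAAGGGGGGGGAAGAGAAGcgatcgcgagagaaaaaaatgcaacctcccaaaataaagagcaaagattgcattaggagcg
KLF5, chr13:73058755-73059004, plus strand: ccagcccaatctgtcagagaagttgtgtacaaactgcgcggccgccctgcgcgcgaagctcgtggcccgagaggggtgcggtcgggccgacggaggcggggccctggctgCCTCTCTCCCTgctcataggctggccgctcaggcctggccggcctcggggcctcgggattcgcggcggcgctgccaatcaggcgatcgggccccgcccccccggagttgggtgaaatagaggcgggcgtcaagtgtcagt
KLF4, chr9:107489770-107490019, minus strand: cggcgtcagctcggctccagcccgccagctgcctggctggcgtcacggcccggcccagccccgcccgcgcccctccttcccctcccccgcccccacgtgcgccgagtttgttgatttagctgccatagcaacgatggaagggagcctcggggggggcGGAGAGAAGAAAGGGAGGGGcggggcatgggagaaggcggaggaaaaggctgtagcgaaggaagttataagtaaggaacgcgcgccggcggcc

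The longest purine run was 14 bases before KLF6, a length that 22.9% of all 35116 windows reached or passed on either strand. Before this start of KLF7 the run was 31 bases, reached by 0.806% of windows. Before KLF5 it was 11 bases, the median of all windows, and lay on the strand opposite the gene. The KLF4 run of 20 bases was reached by 5.41% of windows. A run of at least 15 bases stood in 4 of the 16 KLF windows, those of KLF4 and 3 starts of KLF7, against 17.5% of all windows. The runs over the 16 windows ranged from 7 to 31 bases.

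None of the 16 KLF windows was met by a region of any list. Over all windows, a captured region of some oligo met 19.3%, namely 6.28% from MEG3 TFR1, 3.03% from MEG3 TFR2 and 14% from GATA6-AS TFR1, and a control region met 0.74%. By oligo the control shares were 0.214%, 0.211% and 0.604%. The nearest captured region to the KLF7 window printed above, chr2:207165451-207165850 with MEG3 TFR1, lay 49 bp downstream of it inside the gene with a 3.17-fold ratio. A GATA6-AS TFR1 region, chr2:207165251-207165600, lay 299 bp downstream with a 1.97-fold ratio in the same gene. For KLF5, the GATA6-AS TFR1 region chr13:73058451-73058700 ended 55 bp upstream of the printed window with a 2.72-fold ratio. A start of KLF12 had a GATA6-AS TFR1 region 230 bp downstream of its window with a 2.36-fold ratio. The nearest captured region to the KLF4 window, with its long purine run, was 20.8 kb away for both MEG3 TFR2 and GATA6-AS TFR1 and 37.6 kb away for MEG3 TFR1. Because the printed windows were picked by how near captured DNA lay, the contrast between KLF7 and KLF4 was set by that choice. Whether purine runs and captured DNA go together was not tested.

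All 10 KLF genes were named in each of the 3 captured lists, as overlapped or flanking. Of the 17106 protein-coding genes ever named, 71.6% were named in all 3, and the shares in single lists were 86.7% under MEG3 TFR1, 83.6% under MEG3 TFR2 and 89.3% under GATA6-AS TFR1. Overlap was less common. MEG3 TFR1 regions overlapped 4 of the 10 genes, KLF3, KLF6, KLF12 and KLF13, against a background of 49.1%. MEG3 TFR2 regions overlapped only KLF7 and KLF13, 2 of 10 against 47.1%. GATA6-AS TFR1 regions overlapped 7 of 10, KLF3, KLF5, KLF6, KLF7, KLF9, KLF12 and KLF13, against 56.7%. Over the 3 captured lists 7 of 10 were overlapped, against 75.4%. KLF4, KLF10 and KLF11 were named only as flanking genes there.

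Control regions were named as overlapping a larger share of these 10 KLF genes than of all genes. Of the other 8 KLF genes, 0 were so named in any control list. The larger share is therefore stated for the 10 genes and not for the family. In the MEG3 TFR1 control list they overlapped 6 of 10, KLF3, KLF5, KLF6, KLF7, KLF12 and KLF13, where the background was 21.4%. The same genes without KLF7, 5 of 10, were overlapped in the MEG3 TFR2 control list, against 19.6%. In the GATA6-AS TFR1 control list 6 of 10 were overlapped, with KLF11 in the place of KLF7, against 35.5%. Over the 3 control lists 7 of 10 were overlapped, against 42.2%. With flanking names included, the control lists named 7, 6 and 10 of the 10 genes in the same order, against 31.9%, 29.3% and 60.3%. As the 3 control lists share the no-oligo libraries, these counts are not separate observations. The part of gene length in these counts was not tested. The KLF genes had a median length of 26.3 kb against 24.2 kb for the 19974 protein-coding genes. Their lengths ran from 4.92 kb for KLF4 to 620 kb for KLF12, and 30% of them were at least 50 kb long against 31.3% of all.

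The authors' names left out some regions inside the genes. Inside the RefSeq spans of the 10 genes lay 67 captured and 39 control regions, of which 20 captured (29.9%) and 14 control (35.9%) did not name the gene. Counted by span, 4 KLF genes held a captured region from MEG3 TFR1, 3 from MEG3 TFR2 and 8 from GATA6-AS TFR1, against 60%, 56.8% and 67.1% of protein-coding genes. Control regions lay inside 6, 5 and 8 KLF genes in the same order, against 20.4%, 18.6% and 38.3%. By span, KLF7 replaced KLF6 in the MEG3 TFR1 count, because the KLF6 region lay just outside the gene.

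**Figure D1:**
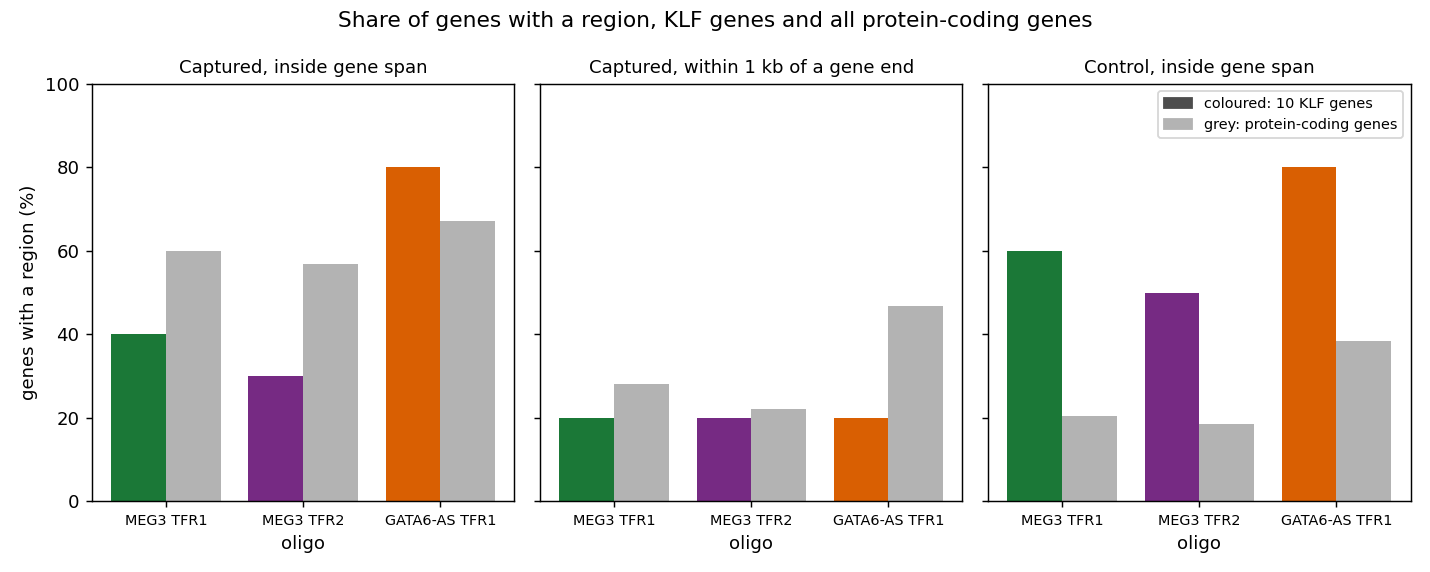
Share of genes, in percent, with a region inside the RefSeq span (left, captured; right, control) or within 1 kb of a gene end (centre, captured), for each oligo. Coloured bars stand for the 10 KLF genes and grey bars for 19974 protein-coding genes. Control regions lay inside 60%, 50% and 80% of these 10 KLF genes against 20.4%, 18.6% and 38.3% of all genes.

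At the gene edges, within 1 kb of either end of the span, 2 KLF genes had a captured region with each oligo, though not the same ones. They were KLF6 and KLF11 with MEG3 TFR1, where the background was 28.2%, KLF9 and KLF13 with MEG3 TFR2 against 22.2%, and KLF10 and KLF13 with GATA6-AS TFR1 against 46.8%. Over all 3 lists 5 of 10 KLF genes had an edge region, and 58.9% of protein-coding genes did. None of these 10 KLF genes had a control region at an edge. Outside the set, KLF2 had a GATA6-AS TFR1 control region at an edge, of 2.68-fold. The background was 2.33%, 2.22% and 5.92% in the 3 control lists and 7% over them. The highest edge ratio was 30.7-fold for KLF6 with MEG3 TFR1. The other edge ratios were 4.95-fold and 4.59-fold at the 3′ end of KLF13 with MEG3 TFR2 and GATA6-AS TFR1, 4.23-fold for KLF9 with MEG3 TFR2, 2.85-fold for KLF10 with GATA6-AS TFR1 and 2.37-fold for KLF11 with MEG3 TFR1.

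The ratios of the KLF regions are set here beside those of the whole lists. The median log2 ratio of captured KLF regions was 1.53 over 33 regions under MEG3 TFR1, 1.55 over 29 under MEG3 TFR2 and 1.39 over 53 under GATA6-AS TFR1, where the lists' medians were 1.41, 1.44 and 1.34. The SD between the KLF regions of a list was 0.78, 0.51 and 0.45 in log2 units. A ratio of at least 4-fold was found in 5 of the 33 regions (15.2%, list 14.4%), 8 of the 29 (27.6%, list 14.1%) and 9 of the 53 (17.0%, list 10.2%). The control medians were -1.45 over 10 regions, -1.84 over 9 and -1.50 over 19, against -1.53, -1.46 and -1.57, with an SD of 0.29, 0.29 and 0.68. The gap was widest for the MEG3 TFR2 control list. Of the control regions, 0 of 10 (0%, list 18.9%), 2 of 9 (22.2%, list 12.1%) and 7 of 19 (36.8%, list 20.9%) had a ratio of at least 4-fold. Among the 8 GATA6-AS TFR1 control regions named as overlapping a KLF gene the median log2 ratio was -2.17. Over the 21 that lay inside the RefSeq spans, named or not, it was -1.87.

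**Figure D2:**
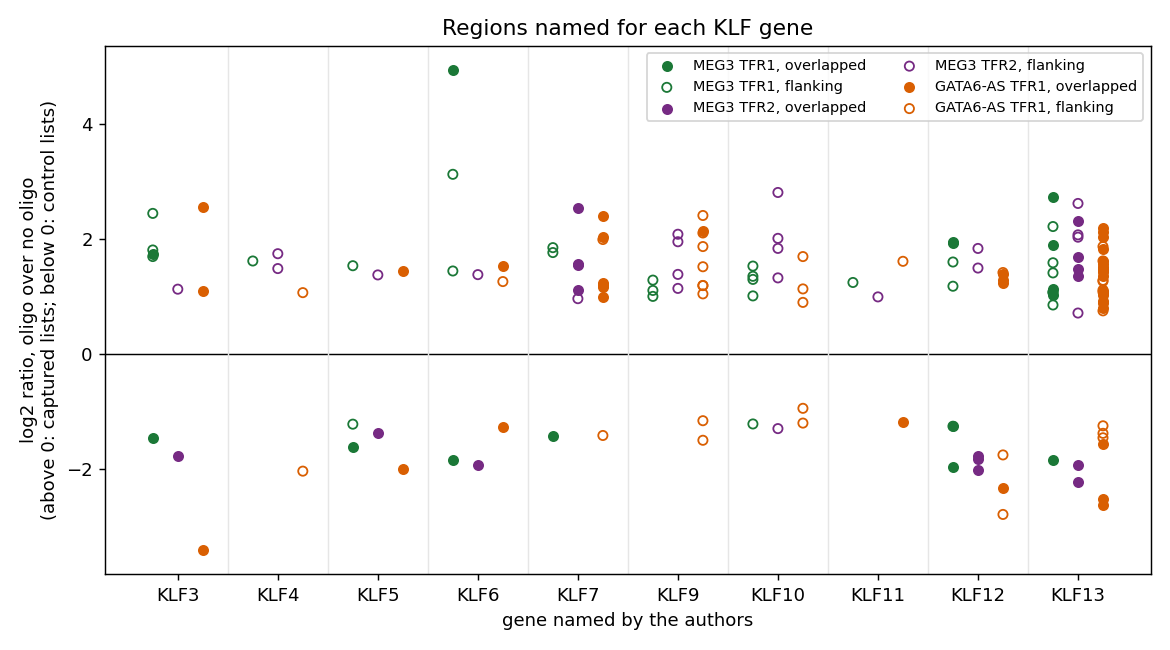
Authors' log2 ratio of oligo over no oligo (vertical axis) for each of the 153 regions that name a KLF gene, by gene (horizontal axis). Colours mark the oligo, filled points overlapped genes and open points flanking genes, with captured regions above 0 and control regions below. The KLF6 region at 4.94 with MEG3 TFR1 stands above every other KLF region, and the lowest point, at -3.42, is the GATA6-AS TFR1 control region of KLF3.

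Among the activating branch, KLF6 is a widely made factor studied as a tumour suppressor, and its gene on chromosome 10 is 9.21 kb long and lies on the minus strand. The MEG3 TFR1 captured region chr10:3786051-3786250, 200 bp wide, had a log2 ratio of 4.94, or 30.7-fold. In lowest terms that ratio is 92 to 3, and what these whole numbers count is unknown. The region lay 842 bp upstream of the end of the KLF6 span and 592 bp upstream of the promoter window printed above, although the authors' name marks it as overlapped. Among 5625 protein-coding genes with a MEG3 TFR1 region at an edge, KLF6 ranked 2 by this ratio. Neither MEG3 TFR2 nor GATA6-AS TFR1 had a region at a KLF6 edge.

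The other MEG3 TFR1 regions that named KLF6 were one of 8.71-fold, chr10:3735601-3735750, 40.2 kb downstream of the gene, and the widest, of 2.72-fold over 400 bp, 6.09 kb upstream. MEG3 TFR1 regions that did not name it began 24.1 kb and 25.3 kb from its 5′ end, downstream, with log2 ratios of 1.43 and 1.61. MEG3 TFR2 had a single KLF6 region, of 2.60-fold, 1.35 kb downstream. With GATA6-AS TFR1 a 200 bp region inside the gene had 2.88-fold and a wider one of 300 bp, 34.3 kb upstream, had 2.39-fold. The control regions of all 3 oligos fell at one place inside KLF6, from chr10:3782301 to chr10:3782750, with 3.59-fold under MEG3 TFR1, 3.83-fold under MEG3 TFR2 and 2.40-fold under GATA6-AS TFR1. KLF6 thus held DNA with more signal without an oligo about 2.46 kb downstream of its promoter window, in the same list comparison that had the 30.7-fold region upstream.

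By Euclidean distance over the highest edge log2 ratio in the 3 captured lists, taken as 0 where there was no edge region, the protein-coding genes nearest to KLF6 were SCNN1G, ZNF678 and NDNF. SCNN1G, an epithelial sodium channel subunit, had a MEG3 TFR1 edge log2 ratio of 4.15 and no edge region with the other oligos, at a distance of 0.78 log2 units. ZNF678, a zinc finger gene, had 3.84 with MEG3 TFR1 alone, at a distance of 1.10. For NDNF, a secreted neurotrophic factor, the MEG3 TFR1 value was 4.31 and the GATA6-AS TFR1 value 1.01, at a distance of 1.19. This likeness covers 3 values per gene. KLF6 itself had 0 for MEG3 TFR2 and GATA6-AS TFR1. Closeness therefore rests mainly on a high MEG3 TFR1 edge ratio, the value for which KLF6 was known, and is no separate result.

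KLF7, which acts in the growth of neurons, spans 99.7 kb of chromosome 2 on the minus strand. It was named by 14 captured regions. The highest was chr2:207136951-207137250 with MEG3 TFR2, inside the gene, at 5.78-fold, and the GATA6-AS TFR1 region chr2:207136901-207137200 lay over nearly the same bases with 4.11-fold. With GATA6-AS TFR1 the highest was chr2:207075651-207075950, at 5.26-fold near the 3′ end of the gene. MEG3 TFR1 named KLF7 as a flanking gene alone, at 3.60-fold 55.0 kb downstream and in a wider region at 3.39-fold 7.89 kb downstream. The widest KLF7 regions of the other oligos had low ratios, 1.95-fold over 650 bp with MEG3 TFR2 and 2.25-fold over 400 bp with GATA6-AS TFR1.

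By span, KLF7 held 2 captured regions from MEG3 TFR1, 8 from MEG3 TFR2 and 6 from GATA6-AS TFR1, and the authors' names omitted KLF7 from both of the first and from 4 of the second. Its MEG3 TFR2 density of 8.02 regions per 100 kb ranked 572 of 6258 protein-coding genes at least 50 kb long, whose median was 1.96. With MEG3 TFR1 its density of 2.01 was below the median of 2.23. The GATA6-AS TFR1 control list had 5 regions inside KLF7 of 2.01-fold to 4.15-fold, none of which named it, and this density of 5.01 per 100 kb ranked 287 of 6258. The MEG3 TFR1 control list had 1, of 2.70-fold, and the MEG3 TFR2 control list had none.

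KLF5, a factor of stem cells and of gut epithelium, is 22.6 kb long on chromosome 13. It was named by 1 captured region per oligo. With MEG3 TFR1 this had 2.89-fold at 25.0 kb upstream, and with MEG3 TFR2 2.59-fold at 2.48 kb upstream. With GATA6-AS TFR1 it was the 2.72-fold region beside the promoter window. A MEG3 TFR1 region that did not name KLF5, chr13:73081201-73081500, lay nearer to the gene, beyond its 3′ end, with 2.32-fold. Within KLF5 the control lists each had a region that ended at chr13:73061050. Its ratio was 3.07-fold from MEG3 TFR1, 2.61-fold from MEG3 TFR2 and 4-fold from GATA6-AS TFR1. A further MEG3 TFR1 control region of 2.33-fold lay 12.3 kb downstream.

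KLF4, one of the factors used to reprogram body cells to pluripotency, is the shortest gene of the set and had no region inside it in any list. MEG3 TFR1 had 1 flanking region at 3.06-fold, 37.8 kb upstream. With MEG3 TFR2 there were regions of 3.35-fold at 38.0 kb and, over a wider 500 bp, 2.80-fold at 62.9 kb downstream. GATA6-AS TFR1 had 2.09-fold within the bases of that wider region. Nearer to the gene on this side, at chr9:107468601-107468950, regions that did not name KLF4 had 2.22-fold with MEG3 TFR2 and 2.10-fold with GATA6-AS TFR1. A single control region named KLF4, with GATA6-AS TFR1, of 4.11-fold at 6.78 kb upstream.

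**Figure D3:**
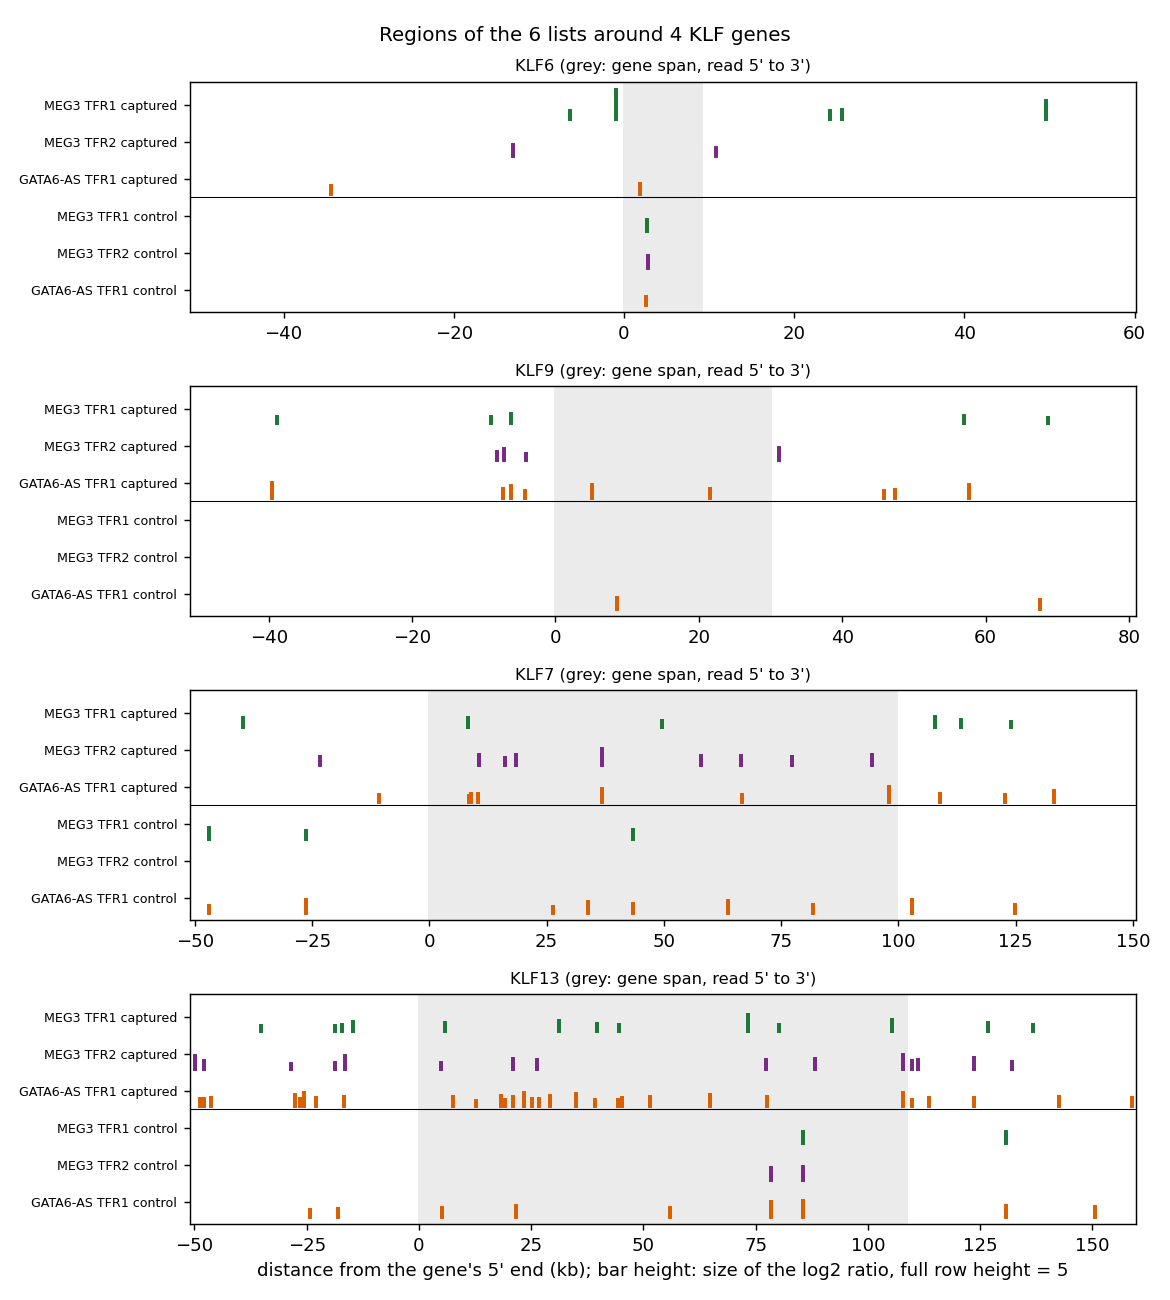
Regions of the 6 lists around KLF6, KLF9, KLF7 and KLF13, by distance from the 5′ end of the gene in kb (horizontal axis), whether or not the authors named the gene. Grey marks the gene span, and the bar height gives the size of the log2 ratio, with a full row equal to 5. The tall MEG3 TFR1 bar of KLF6 stands just upstream of the gene while the control regions of all 3 oligos lie inside it, and KLF13 has 17 GATA6-AS TFR1 captured regions within its span.

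In the CtBP-recruiting branch, KLF3 spans 37.3 kb of chromosome 4. Its highest captured ratios were 5.85-fold with GATA6-AS TFR1, at chr4:38689151-38689350 inside the gene, and 5.44-fold with MEG3 TFR1, 33.1 kb away. MEG3 TFR2 had 1 flanking region, at 2.18-fold. The widest regions had 2.13-fold over 800 bp inside the gene with GATA6-AS TFR1 and 3.50-fold over 350 bp with MEG3 TFR1, 29.6 kb away. KLF3 also had the highest control ratio of the set, at chr4:38685101-38685250, where no oligo exceeded GATA6-AS TFR1 by 10.7-fold. In lowest terms that ratio, from a region of 150 bp, is 32 to 3, and what these whole numbers count is unknown. At the same place the control ratio was 2.75-fold for MEG3 TFR1 and 3.41-fold for MEG3 TFR2. KLF3 thus held both a captured and a control region of GATA6-AS TFR1.

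KLF12, known as a repressor of the AP-2 alpha gene, is the longest of the set. By span it held 7 captured regions from MEG3 TFR1, 2 from MEG3 TFR2 and 4 from GATA6-AS TFR1, or 1.13, 0.32 and 0.65 per 100 kb, each below the median gene of at least 50 kb. The highest ratios named for KLF12 were 3.86-fold with MEG3 TFR1 inside the gene, 3.57-fold with MEG3 TFR2 24.3 kb downstream and 2.67-fold with GATA6-AS TFR1 53.0 kb downstream. The widest were 800 bp at 3.03-fold with MEG3 TFR1 and 950 bp at 2.36-fold with GATA6-AS TFR1. With each oligo, a region inside the span that did not name KLF12 had a higher ratio than these. It was 5.57-fold with MEG3 TFR1, at chr13:74196301-74196500, and 4.75-fold with MEG3 TFR2, at chr13:74290451-74290600. With GATA6-AS TFR1 it was 3.33-fold, at chr13:74278001-74278350.

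Control regions of KLF12 numbered 4 from MEG3 TFR1, 4 from MEG3 TFR2 and 6 from GATA6-AS TFR1 by span. Per 100 kb these were 0.65, 0.65 and 0.97, against medians of 0, 0 and 1.31 for genes of at least 50 kb. The GATA6-AS TFR1 control density was thus below the median gene, and the MEG3 ones were above it. Near chr13:73961600 the control ratios were 3.89-fold under MEG3 TFR1, 3.44-fold under MEG3 TFR2 and 6.11-fold under GATA6-AS TFR1, the last in a region that named no gene. Near chr13:73704400 they were 2.38-fold, 3.57-fold and 3.66-fold in the same order. The GATA6-AS TFR1 value was the highest of the 3 at both places, as at KLF3, KLF5 and KLF13, but not at KLF6. The largest KLF12 control ratio, 6.93-fold with GATA6-AS TFR1, lay at chr13:74167051-74167300, where MEG3 TFR1 had 2.39-fold.

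In the SIN3A-recruiting branch, KLF13, a regulator of chemokine genes in T cells, had the most regions: 42 captured and 9 control, over a gene of 108.8 kb on chromosome 15. GATA6-AS TFR1 regions made up 24 of the 42, with 10 from MEG3 TFR1 and 8 from MEG3 TFR2. Of the GATA6-AS TFR1 regions 17 lay inside the gene, with ratios from 1.75-fold to 4.59-fold. That is 15.6 per 100 kb, and 7.77% of the 6258 protein-coding genes of at least 50 kb had as many or more, the median being 2.26. The MEG3 oligos had 6.43 and 5.51 per 100 kb inside KLF13, against medians of 2.23 and 1.96. KLF13 was above the median gene for each oligo. It was so in the control lists too, with 0.92 control regions per 100 kb under MEG3 TFR1, 1.84 under MEG3 TFR2 and 4.59 under GATA6-AS TFR1, against medians of 0, 0 and 1.31. By control density it ranked 377 of 6258 with GATA6-AS TFR1 and 380 with MEG3 TFR2, so its high density was not found in captured DNA alone.

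**Figure D4:**
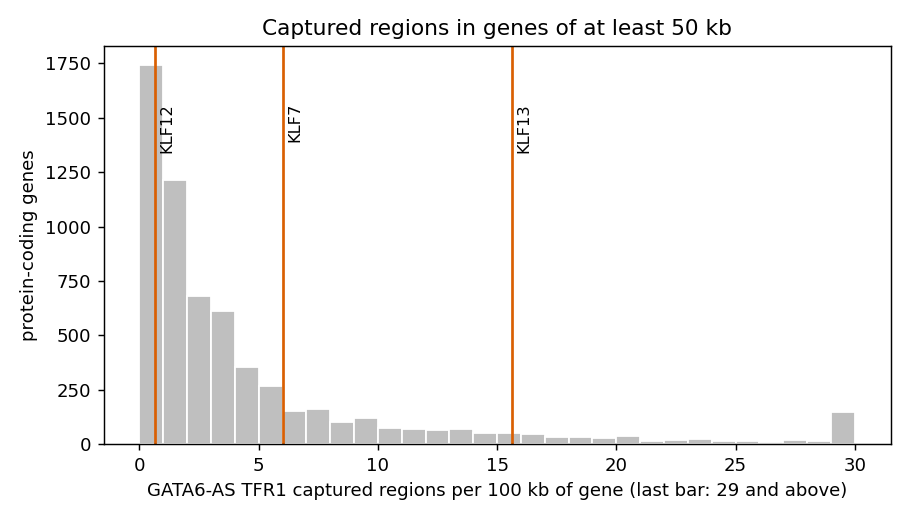
Number of protein-coding genes of at least 50 kb (vertical axis) by GATA6-AS TFR1 captured regions per 100 kb of gene (horizontal axis), with all genes at 29 and above in the last bar. Vertical lines mark KLF12 at 0.65, KLF7 at 6.02 and KLF13 at 15.6. KLF12 lies below the median of 2.26 and the others above it.

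The highest KLF13 ratio was 6.60-fold with MEG3 TFR1 at chr15:31400101-31400350 inside the gene. With MEG3 TFR2 it was 6.13-fold at chr15:31259701-31259900, 66.9 kb upstream, where MEG3 TFR1 had 4.64-fold and GATA6-AS TFR1 3.65-fold. The highest GATA6-AS TFR1 ratio, 4.59-fold at chr15:31434601-31434800, lay within 1 kb of the 3′ end of the gene, where MEG3 TFR2 had 4.95-fold at chr15:31434501-31434750. The widest KLF13 regions had lower ratios, 1.80-fold over 700 bp with MEG3 TFR1, 1.64-fold over 600 bp with MEG3 TFR2, and 2.94-fold and 2.14-fold over 800 bp each with GATA6-AS TFR1. Control regions of all 3 oligos began at chr15:31412251 inside the gene. There the ratio was 3.60-fold under MEG3 TFR1, 4.67-fold under MEG3 TFR2 and 6.16-fold under GATA6-AS TFR1.

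KLF9, a factor induced by thyroid and steroid hormones, was named by 15 captured regions, 14 of them flanking. The only one named as overlapping the gene was a GATA6-AS TFR1 region of 4.38-fold, chr9:70409501-70409650. A further GATA6-AS TFR1 captured region inside KLF9, chr9:70392951-70393200, had 2.62-fold and named no gene. The highest ratio with GATA6-AS TFR1 was 5.30-fold, 39.4 kb upstream, and its widest region, 550 bp, had 3.65-fold 5.89 kb upstream. MEG3 TFR2 had 4.23-fold at chr9:70383351-70383700, 904 bp beyond the 3′ end, and 3.86-fold over 650 bp 6.79 kb upstream. At that upstream place GATA6-AS TFR1 had 2.86-fold in an overlapping region. The MEG3 TFR1 regions that named KLF9 had 2.43-fold for the highest and 2-fold over 900 bp for the widest. A MEG3 TFR1 region that did not name the gene, chr9:70420751-70421050, had 3.14-fold and lay within the widest GATA6-AS TFR1 region. In the control lists KLF9 was named with GATA6-AS TFR1 alone, at 2.83-fold and 2.24-fold, both flanking. A GATA6-AS TFR1 control region that named no gene, chr9:70405901-70406150, lay inside KLF9 with a higher ratio of 3.35-fold.

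KLF10, induced early by transforming growth factor beta, was named by 11 captured and 4 control regions on chromosome 8, all flanking. The highest was 7-fold with MEG3 TFR2, a region of 150 bp 46.4 kb from the gene, and the widest of that oligo, 700 bp at 15.1 kb, had 4.03-fold. With MEG3 TFR1 the highest ratio was 2.88-fold, 8.13 kb from the gene. With GATA6-AS TFR1 it was 3.23-fold at 47.2 kb, and the region at the KLF10 edge with 2.85-fold did not name the gene. Its control ratios were all between 1.93-fold and 2.46-fold.

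KLF11, a relative of KLF10 that also acts downstream of transforming growth factor beta and in insulin-producing cells, had 1 captured region per oligo, each upstream of the gene. They had 2.37-fold with MEG3 TFR1 at 2.85 kb, 1.99-fold with MEG3 TFR2 at 14.2 kb and 3.05-fold with GATA6-AS TFR1 at 59.2 kb. Each oligo also had a nearer captured region upstream that did not name KLF11. With MEG3 TFR1 it was chr2:10042401-10042700, within 1 kb of the 5′ end of the gene, at 2.37-fold. With GATA6-AS TFR1 it was chr2:10041751-10042450 at 2.28-fold, 1.13 kb from the first promoter window. With MEG3 TFR2 it was chr2:10032401-10032550, and its 7.11-fold was above every MEG3 TFR2 ratio that named a KLF gene of the set. The control lists had 1 region inside KLF11, with GATA6-AS TFR1, of 2.26-fold.

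The relatives and partners of these factors were counted by the same edge rule, against the same backgrounds of 28.2%, 22.2% and 46.8%. Of the other 8 KLF genes on the list, 4 had a captured edge region from MEG3 TFR1, 2 from MEG3 TFR2 and 5 from GATA6-AS TFR1. The highest ratios were 11.2-fold for KLF18 and 4.18-fold for KLF17 with MEG3 TFR1, 5.08-fold for KLF15 with GATA6-AS TFR1 and 3.38-fold for KLF14 with MEG3 TFR1. KLF8, on chromosome X, had no region. Of the 9 SP genes, whose proteins bind similar GC boxes, 4, 2 and 6 had an edge region, the highest being SP7, an osteoblast factor, at 10.6-fold and SP8 at 4.50-fold with GATA6-AS TFR1, then SP1 at 3.97-fold with MEG3 TFR1 and SP4 at 3.88-fold with GATA6-AS TFR1. Of the 6 corepressor genes 3 had an edge region with each oligo, among them SIN3B at 5.35-fold with MEG3 TFR1, HDAC2 at 3.87-fold and HDAC1 at 3.35-fold with GATA6-AS TFR1, and SIN3A at 2.37-fold with MEG3 TFR2.

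Control regions inside genes were named for none of the other 8 KLF genes in any list, beside 6, 5 and 6 of the 10 genes above. By RefSeq span, KLF15 held 1 with GATA6-AS TFR1, of 3.30-fold, so that 0, 0 and 1 of the 8 had one, beside 6, 5 and 8 of the 10. They were named for 0, 1 and 2 of the 9 SP genes and for 3, 2 and 4 of the 6 corepressor genes, against the backgrounds of 21.4%, 19.6% and 35.5%. The other 8 KLF genes ran in length from 2.78 kb for KLF1 to 383 kb for KLF8, with KLF17 at 91.2 kb and KLF15 at 69.3 kb. KLF16 had 24.1 kb, and KLF14 with 3.51 kb, KLF18 with 3.81 kb and KLF2 with 3.86 kb were short like KLF1. Each of these short genes was below KLF4, the shortest of the 10 at 4.92 kb. The part of gene length in these counts was not tested.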

How the data were processed

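The submitters' processing notes name the tools FastQC and BWA 0.7.15-r1140 and the build hg38. How regions were called and libraries scaled is not given in the sources used here, and a ratio would change with both. The 6 deposited lists give positions, the authors' gene names and one log2 ratio per region. That these deposited values are in log2 units was inferred, since 98.2% to 99.96% of a list's regions then gave a linear ratio equal, within a relative 3e-09, to a fraction of whole numbers whose denominator did not exceed 400.

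Coordinates are printed from 1. Of protein-coding names, 91.3% of the unmarked ones overlapped the gene's RefSeq span and 98.8% of the marked ones lay within 100 kb. A RefSeq table of GRCh38.p14, the hg38 assembly, with 19974 protein-coding genes on the 23 chromosomes of the lists gave gene spans but no exons. Overlap was at least 1 bp and an edge 1 kb. Background shares by name used the 17106 protein-coding genes ever named. Purine runs were counted on both strands. The finding of regions at gene edges, but not the purine run count, was tested on simulated regions. Python 3.11.15, numpy 2.4.6, pandas 2.3.3 and matplotlib 3.10.9 were used.

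The genes, lists and rules were chosen with earlier results of these data known. All 10 KLF genes are named, with the highest region of each captured list and the widest where it differs, among regions that name the gene. Of the relatives, up to 4 per list are given by edge ratio. A planned count of regions shared by the oligos was left out because the no-oligo libraries are common to the comparisons. The alternatives tried were a log2 size of 1.5 or more, the 50% largest ratios, joining regions within 200 bp, overlapped names only, RefSeq spans, edges of 5 kb, and one value per gene.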

Additional observations from a re-analysis of the deposited data

How the results depend on the processing

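Of 84 alternative values, 59 stayed within 1.5 times the reported count or within 1 SD of the reported median, 25 did not, and 0 changed sign. The counts of KLF genes overlapped and all medians were among the 59, the yardstick for medians being the SD of single regions. On the linear scale the GATA6-AS TFR1 control median still went from 2.83-fold to 4.50-fold with overlapped names only and to 3.65-fold by RefSeq span. At a log2 size of 1.5 or more the KLF regions numbered 18 in the MEG3 TFR1 captured list, 15 in that of MEG3 TFR2 and 21 in that of GATA6-AS TFR1, and 4 and 10 in the MEG3 TFR1 and GATA6-AS TFR1 control lists. Among the 50% largest ratios they numbered 19, 18 and 28 captured, and 4 and 9 in those control lists. With overlapped names only they numbered 8, 8 and 31 captured and 8 in the GATA6-AS TFR1 control list, and by RefSeq span 17, 16 and 34 captured. Edges of 5 kb gave 5, 5 and 8 KLF genes captured and 1, 1 and 5 in the control lists. MEG3 TFR1 edges were left with 1 gene, KLF6, both at a log2 size of 1.5 or more and among the 50% largest. Apart from the counts by RefSeq span, fewer regions or wider edges account for these counts by construction. The spans also took in regions that did not name the gene. No paired analysis was possible because the lists hold no value per library, and for the same reason no library could be left out. The other overlap, ratio and joining settings meant for regions shared between oligos were not run. Depth is unknown, and what a ratio of small whole numbers, such as 92 to 3 at KLF6, carries as error cannot be given.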

Other observations

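The authors' names also held transcripts and pseudogenes with KLF symbols, which were kept apart from the genes above. KLF3-AS1, antisense to KLF3, was named by 3 captured regions with MEG3 TFR1, 1 of them overlapped, and overlapped by 2 with GATA6-AS TFR1. KLF7-IT1, a transcript within KLF7, was named as flanking by 2 captured regions with MEG3 TFR1 and by 1 each with MEG3 TFR2 and GATA6-AS TFR1. The pseudogene KLF4P1 was overlapped by 1 captured region with MEG3 TFR2. Where a gene and its antisense transcript overlap, a DNA region belongs to both.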
